A study of Mus musculus with 629 samples.

Results

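Microglia with little macrophage RNA were 55 of the 215 cells labelled Microglia in a set of 629 single cells from mouse brain. They were chosen by a measured value: the summed level of 16 macrophage genes lay below 8000 CPM, counts per 1000000 counts of the cell, in each of them. The 16 genes were Mrc1, Cd163, Lyve1, F13a1, Cbr2, Pf4, Ms4a7, Stab1, Siglec1, Folr2, Dab2, Cd209f, Clec4n, Colec12, Ms4a6c and Clec10a. The cells are called low-macrophage microglia here, and the 160 cells labelled Microglia above the limit are called other microglia. A further 400 cells carried the label Macrophages and 14 the label of a numbered type 7.

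The cells came from adult C57BL/6 mice that carried SM22-Cre and a Rosa26-stop-tdTomato reporter, in which the promoter of the smooth muscle gene SM22 (transgelin) drives the recombinase. The protocol text gives this reporter line for every cell, whatever its Notch3 genotype. By genotype, the low-macrophage microglia comprised 17 KO, 18 Het and 20 WT cells. They were sorted by flow cytometry into 384-well plates, 6 of which hold the cells used here, and made into SMART-seq2 libraries, which cover whole polyadenylated transcripts and carry no molecular identifiers. The sort gate, the sex and number of the mice and the animal of each cell are not given in the sources used here, so each genotype and each label is 1 sample. No difference below was therefore tested, and every interval covers counting error only.

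Microglia are the macrophages of the brain parenchyma. They depend on the receptor CSF1R and on TGF-beta signalling, and they are known by the ADP receptor P2ry12, the membrane protein Tmem119 and the transcription factor Sall1. The macrophages of the brain borders lie along vessels and in the meninges, and they are known by scavenger and lectin receptors such as Mrc1, Cd163 and Lyve1. Both kinds of cell share a large myeloid programme, so a microglia library that also holds macrophage transcripts is hard to read for the genes in which they differ.

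The limit of 8000 CPM fell within a continuous range of cells. The macrophage gene sum was 134 CPM in the lowest of the 55 cells, 3304 CPM at their median and 7997 CPM in the highest. It ran over 8118, 17601 and 36652 CPM in other microglia and over 8116, 36077 and 66911 CPM in macrophages, as lowest, median and highest cell. The highest sums inside the limit were 7744, 7866, 7979, 7987 and 7997 CPM, and the lowest sums of microglia outside it were 8118, 8158, 8381, 8413 and 8729 CPM. No macrophage lay below the limit. Of the 55 cells, 13 had a sum under 1000 CPM, 8 had 1000 to 2000 CPM, 11 had 2000 to 4000 CPM, 10 had 4000 to 6000 CPM and 13 had 6000 to 8000 CPM.

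**Figure D1:**
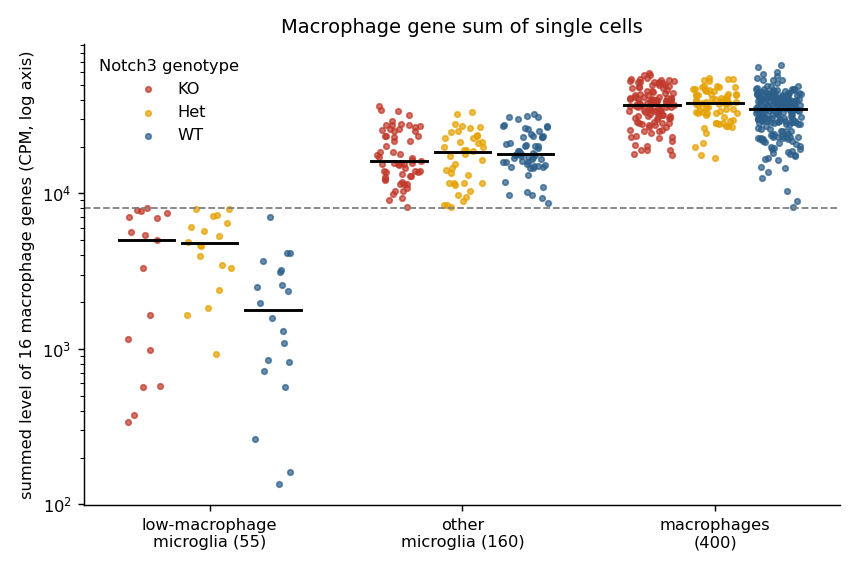
Each point is 1 cell, placed by its label and the rule (horizontal axis) and by the summed level of the 16 macrophage genes (vertical axis, CPM, log axis), coloured by Notch3 genotype; black bars are medians and the dashed line is the limit of 8000 CPM. The low-macrophage microglia spread from 134 to 7997 CPM, with a median of 4980 CPM in KO, 4766 CPM in Het and 1779 CPM in WT cells.

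Depth was like that of the other cells. The low-macrophage microglia had a median of 245118 counts (13829 to 1121476), against 250889.5 in other microglia and 197196.5 in macrophages, without spike-ins and the ribosomal RNA gene Rn18s. They had counts for a median of 4637 genes, against 4725 in other microglia and 3401.5 in macrophages. At 50000 counts a cell the medians were 3710.5 genes in 48 low-macrophage microglia, 3638 in 157 other microglia and 2679 in 375 macrophages, after 7, 3 and 25 shallower cells had been left out. The share of counts from mitochondrial genes had a median of 2.25% in low-macrophage microglia, 1.81% in other microglia and 2.08% in macrophages. It lay above that of every other microglia cell (4.01%) in 15 low-macrophage cells and above that of every macrophage (8.03%) in 6, up to 35.4%. Without these 6 cells, the counts of genes given below moved by less than 1.5 times, but the genes called changed. Against macrophages, 146 of 165 higher and 149 of 164 lower genes stayed. Against other microglia, 9 of 13 and 158 of 193 did, and by genotype 141 of 221 and 123 of 163.

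Most of the cells carried the label's markers. P2ry12, which steers microglial processes towards released nucleotides, had 159 CPM in the lowest, 6354 CPM in the median and 19431 CPM in the highest of the 55 cells, against 0, 280 and 6139 CPM in macrophages. Tmem119 had 0, 7730 and 18220 CPM in low-macrophage microglia and 0, 10.2 and 3729 CPM in macrophages. Sall1, a repressor that keeps microglial identity, had 0, 403 and 3187 CPM in low-macrophage microglia and 0, 0 and 377 CPM in macrophages. The ranges of single cells overlapped for all 3 genes, whereas the medians stood far apart. Over summed counts, P2ry12 was at 7436 CPM (95% exact Poisson interval 7394 to 7477) in low-macrophage microglia, 5399 CPM (5380 to 5418) in other microglia and 340 CPM (337 to 344) in macrophages.

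A count of P2ry12 was present in all 55 cells, of Tmem119 in 98.2% and of Sall1 in 83.6%. The same shares were 94.5%, 82.0% and 15.8% in macrophages, so a single count of P2ry12 or Tmem119 did not separate the labels. P2ry12 exceeded 1000 CPM in 49 of the 55 cells, 155 of 160 other microglia and 23 of 400 macrophages. The low-macrophage cells below that were all WT, at 159, 172, 249, 807 and 853 CPM on plate 530s and 388 CPM on plate 059s. The cell with 172 CPM also had only 192 CPM of Tmem119 and 3.43 CPM of Sall1. Another WT cell of plate 530s had no count of Tmem119 or Sall1 and 249 CPM of P2ry12. It kept its label here, and the counts of genes given below were also made without it.

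A small part of the macrophage programme remained below the limit. The 16 genes that made the choice lay at a median of 10.5% of their macrophage level in low-macrophage microglia, from 1.67% for Lyve1 to 24.7% for Ms4a6c, and at 52.1% in other microglia. These values were fixed by the rule and are a description. Per cell, a median of 4 of the 16 genes had no count (0 to 12), against 1 in other microglia (0 to 4), and 4 of the 55 cells had counts of all 16. Stab1, a scavenger receptor, and Mrc1, the mannose receptor, were counted in every low-macrophage cell, at 16.8 to 3525 CPM and 8.29 to 2909 CPM. Lyve1, the hyaluronan receptor, was counted in 70.9% of the 55 cells, and at 50000 counts in 41.7% (95% exact binomial interval 27.6 to 56.8), against 89.2% of other microglia and 91.7% of macrophages.

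Genes of border macrophages that the rule did not use showed the same gradation. The 31 such genes that were measured in macrophages lay at a median of 18.7% of the macrophage level in low-macrophage microglia (3.71% to 74.3%) and at 60.1% in other microglia (43.3% to 93.3%). The lowest was Ccl24, an eosinophil chemokine, and the highest was Clec12a, a C-type lectin. The 29 microglia identity genes that were measured in low-macrophage microglia pointed the other way. Other microglia had a median of 77.7% of the level in low-macrophage microglia, and macrophages 8.60%. Each group was filtered in the cells that its percents refer to, macrophages or low-macrophage microglia. The directions are thus partly set by the choice of genes and cells and are a description. Whether these transcripts were made in the cell or came from outside it was not tested.

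**Figure D2:**
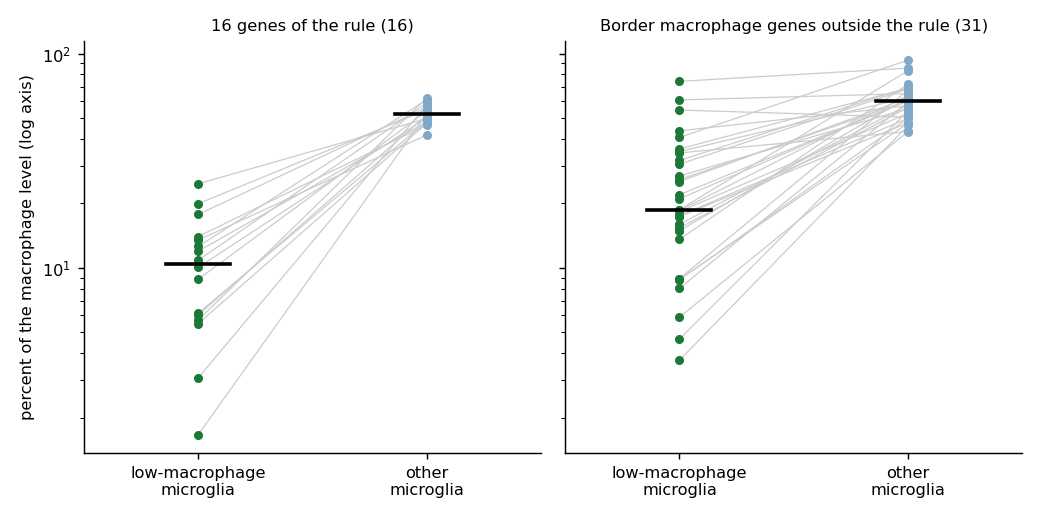
Each grey line joins 1 gene in low-macrophage microglia (left) and other microglia (right); the vertical axis is its level as a percent of the level in macrophages (log axis), and black bars are medians. The 16 genes of the rule had medians of 10.5% and 52.1%, and the 31 border macrophage genes outside it 18.7% and 60.1%.

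Across all 215 cells labelled Microglia, the levels that ran most closely with the macrophage gene sum were Fcgrt (Spearman's rho = 0.70 over 3306 genes ranked), Snx2 (0.66), Gas6 (0.66), Ednrb (0.63) and Ctsc (0.62). Fcgrt is the neonatal Fc receptor, Gas6 a ligand of the TAM receptors and Ednrb the endothelin B receptor. Among the lowest values were those of Cd81 (-0.50), Ctss (-0.49), Sparc (-0.47) and Lpcat2 (-0.46). These are descriptions over cells that share plates and totals. Within the 55 cells the macrophage gene sum had rho = 0.37 with the number of genes counted and 0.08 with the total count.

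Next, low-macrophage microglia were set against macrophages for genes outside the rule. A gene counted as measured at 20 CPM or more with a count in at least 25% of the cells of the same side, and as apart at 4-fold or more, on the log2 scale of CPM + 1, with the same direction in all 7 pools (cells of 1 genotype on 1 plate, at least 3 cells on both sides). Of 6091 measured genes, 165 were higher (2.71%) and 164 lower (2.69%) in low-macrophage microglia, and the median log2 ratio of all was -0.06. How the labels were made is not given in the sources used here. They may rest on the same counts, so a difference between them is a description as well.

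Of 29 measured microglia identity genes, 23 were higher in low-macrophage microglia, none was lower, and the median log2 ratio was 3.52. Tmem119 stood at 6964 CPM against 73.1 CPM in macrophages (log2 ratio 6.56) and Olfml3, a secreted olfactomedin-like protein, at 4310 CPM against 54.0 CPM (6.29). Sparc, a matricellular protein, had 7647 CPM against 119 CPM (5.99), with a lowest, median and highest cell of 12.7, 7810 and 19586 CPM against 0, 13.2 and 2382 CPM. The median cell of low-macrophage microglia lay above the highest macrophage for Tmem119 and Sparc. Csf1r, the receptor that both cell types need, was at 16519 CPM against 12891 CPM (0.36) and Fcrls at 6420 CPM against 4571 CPM (0.49); neither was apart.

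**Figure D3:**
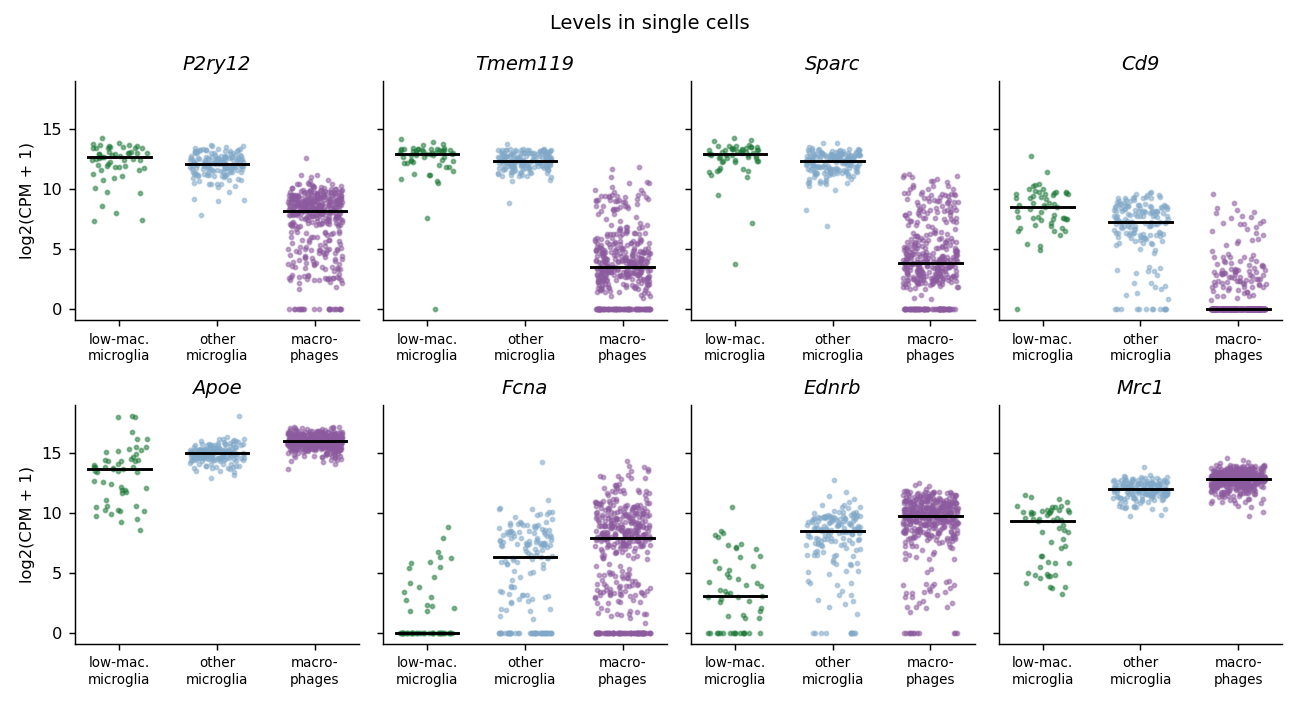
Each point is 1 cell; the vertical axis is log2(CPM + 1) and black bars are medians, for low-macrophage microglia (left), other microglia and macrophages. Tmem119 and Sparc had medians of 7730 and 7810 CPM in low-macrophage microglia, against 10.2 and 13.2 CPM in macrophages, while the Fcna median was 0 CPM in low-macrophage microglia, 77.3 CPM in other microglia and 239 CPM in macrophages.

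By log2 ratio, the genes highest in low-macrophage microglia among those named by a fixed size rule were Spint1 (6.80), Cd34 (6.65), Tmem119, Parvg (6.46), Olfml3, Adgrg1 (6.14), Tjp1 (6.11), F11r (6.11), Cd9 (6.05), Lhfpl2 (6.01), Sparc, Lrrc3 (5.97), Col27a1 (5.96), Serpine2 (5.96) and Atp8a2 (5.88). F11r, a junctional adhesion molecule, had 6.56, 1018 and 3197 CPM in the lowest, median and highest low-macrophage cell and 0, 0 and 621 CPM in macrophages. Tjp1, a tight junction scaffold, had 130 CPM over all low-macrophage cells and 0.895 CPM over macrophages. Spint1, an inhibitor of serine proteases, had 286 CPM against 1.58 CPM and was counted in 76.4% of low-macrophage cells and in 10.0% of macrophages. Adgrg1, an adhesion receptor, had 1031 CPM against 13.6 CPM. Cd34, better known from blood progenitors and vessels, had 187 CPM against 0.877 CPM, and its log2 ratio ran from 2.11 to 8.05 over the pools.

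The genes lowest in low-macrophage microglia were Fcna (log2 ratio -5.57), Npr1 (-5.36), Ccl24 (-4.61), Cfp (-4.39), Ednrb (-4.28), Trpv4 (-4.23), Mmp9 (-3.89), Susd1 (-3.87), Cxcr3 (-3.74), Cd38 (-3.62), Rnf150 (-3.61), Pgap6 (-3.58), Ehd1 (-3.55), Cd36 (-3.49) and Mgl2 (-3.45). Fcna, a ficolin of the lectin pathway of complement, had 19.7 CPM (17.7 to 22.0) in low-macrophage microglia and 983 CPM (978 to 989) in macrophages. Its lowest, median and highest cell were at 0, 0 and 438 CPM against 0, 239 and 19700 CPM, so the ranges overlapped. Npr1, a natriuretic peptide receptor, had 1.93 CPM against 119 CPM. Cfp, properdin, had 37.3 CPM against 802 CPM, and Ednrb had 62.6 CPM against 1236 CPM. Of the low-macrophage Ednrb counts, 40.3% came from 1 cell, as did 41.6% of those of Fcna and 42.0% of those of Mmp9, a gelatinase.

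Of 32 measured border macrophage genes outside the rule, 18 were lower in low-macrophage microglia and none was higher, with a median log2 ratio of -2.29. They included Cd36, a scavenger receptor, at 82.8 CPM against 942 CPM, Cd38, an NAD hydrolase, at 72.2 CPM against 899 CPM, and Tgfbi, an extracellular matrix protein, at 268 CPM against 1743 CPM. Lyz2, lysozyme, was at 2987 CPM against 8682 CPM and Apoe at 37656 CPM against 69025 CPM; neither was apart.

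Among transcription factors, 3 of 17 measured genes were higher in low-macrophage microglia and 1 was lower. The shares over all measured genes were 2.71% higher and 2.69% lower. Sall1 had 410 CPM against 7.12 CPM and its relative Sall3 86.0 CPM against 0.791 CPM. Tfec, a relative of Mitf, was lower at 3.62 CPM against 65.2 CPM. The lineage factors Spi1 (598 CPM against 453 CPM) and Irf8 (632 CPM against 316 CPM) were not apart. Of 9 genes grouped here under purinergic signalling, not all of them nucleotide receptors, 5 were higher. These were P2ry12, P2ry13, Gpr34, the adenosine receptor Adora3 (86.3 CPM against 1.12 CPM) and the potassium channel Kcnk13 (167 CPM against 33.4 CPM). P2rx4 and P2rx7, ATP-gated channels, were at 241 CPM against 653 CPM and 286 CPM against 857 CPM, which was not apart. Tgfbr1, the type I receptor of TGF-beta, was the only one of 9 measured CSF1 and TGF-beta genes that was higher, at 970 CPM against 83.4 CPM. Its partner Tgfbr2 had 647 CPM against 1041 CPM. A single call in so small a group is not a result about the group. P2ry12, P2ry13, Gpr34, Sall1, Sall3 and Tgfbr1 are also microglia identity genes counted above, so their calls are not separate results.

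Of 9 measured chemokines and cytokines, 5 were lower and 1 was higher in low-macrophage microglia, against 2.69% and 2.71% over all measured genes. The chemokines Ccl2 (1.27 CPM against 156 CPM), Ccl7 (3.32 CPM against 192 CPM), Ccl8, Ccl12 and Ccl24 were lower. Il1a, an interleukin 1 cytokine, was higher at 143 CPM against 0.551 CPM, with counts in 47.3% of low-macrophage cells and 5.00% of macrophages. Of 14 phagocytic receptors and bridging proteins, 3 were higher (Havcr2, Itgb5 and Lrp1) and 4 lower (Timd4, Cd36, Msr1 and Gas6). Havcr2, also called TIM-3, had 226 CPM against 10.0 CPM. Timd4, a phosphatidylserine receptor, had 2.78 CPM against 72.0 CPM. Itgb5 is also a microglia identity gene, and Ccl8, Ccl24, Cd36 and Gas6 are also border macrophage genes counted above.

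Groups that both cell types share were compared in the same way. Over all measured genes, 2.71% were higher and 2.69% lower. Of 20 lysosomal genes, 1 was higher and none lower, with a median log2 ratio of 0.16. The complement genes C1qa (6896 CPM against 6889 CPM), C1qb (10652 CPM against 9203 CPM) and C1qc (5224 CPM against 4856 CPM) were level, while C5ar1 and C4b were the 2 of 9 complement genes that were lower. None of 10 measured interferon genes was apart, but none had a log2 ratio above 0 and their median was -1.30. No gene of 6 in MHC class I was apart, with a median of -0.36. Of 6 Fc receptor genes only Fcgrt was apart, at 629 CPM against 3937 CPM. Fcgrt and C4b are also border macrophage genes counted above. Of 8 measured Notch pathway genes, Rbpj, the DNA-binding partner of cleaved Notch, was lower at 27.5 CPM against 147 CPM, and the others were not apart. The 4 measured MHC class II genes had a median log2 ratio of 1.62, and H2-DMa among them was higher at 197 CPM against 25.7 CPM. Cd74 of this group exceeded 1000 CPM in only 4 of the 55 cells. Its summed level was 276 CPM, while its median cell was at 23.0 CPM.

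**Figure D4:**
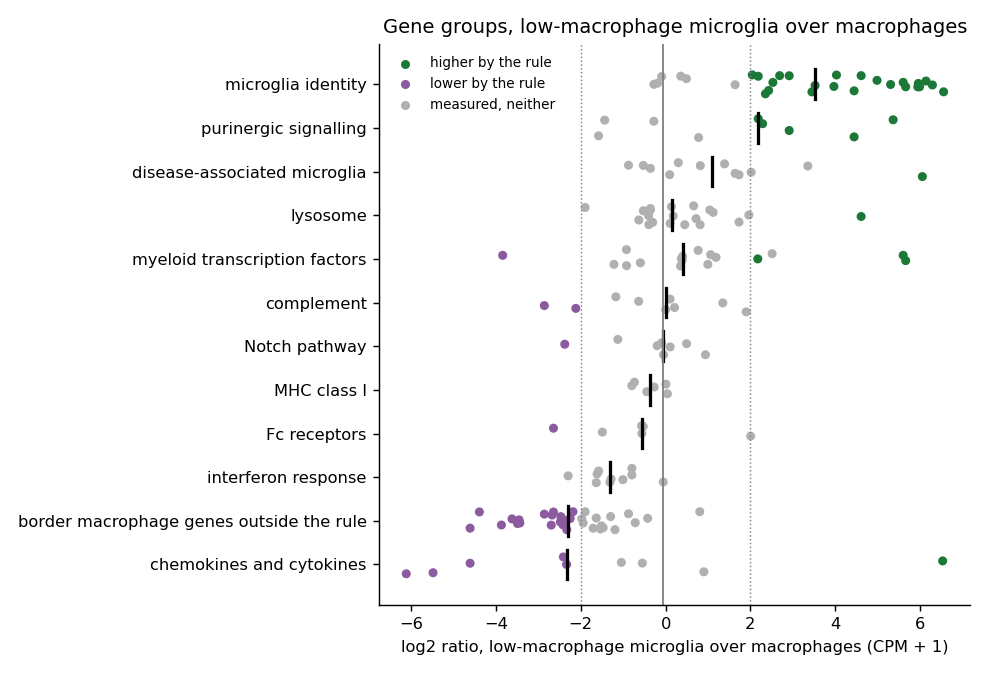
Each point is 1 measured gene of a group; the horizontal axis is the log2 ratio of low-macrophage microglia over macrophages, black bars are the medians of the groups, the grey line is the median of all measured genes (-0.06) and dotted lines mark 4-fold. Microglia identity genes had a median of 3.52 and border macrophage genes outside the rule -2.29, and the lysosomal genes lay around 0.16.

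Against other microglia, which bear the same label, a 2-fold limit was used in the same way. Of 6508 measured genes, 13 were higher (0.200%) and 193 lower (2.97%) in low-macrophage microglia, with a median log2 ratio of -0.11. Of the 193 lower genes, 84 were also among the 164 that were lower than in macrophages, which is 43.5% of the first list and 51.2% of the second. Both comparisons share the low-macrophage cells. The split of the label was made on macrophage genes, so lower levels of genes that run with them are partly set by the rule. The counts, the overlap and the named lower genes are thus a description. Of 30 measured border macrophage genes outside the rule, 17 were lower, with a median log2 ratio of -1.44. The lower genes named by size were Fcna (-5.08), Ednrb (-3.57), Cfp (-3.50), Ccl24 (-3.50), Trpv4 (-3.38), Mgl2 (-2.89), Cd38 (-2.87) and Mmp9 (-2.71). The Fcna ratio was -3.54 without the top cell of each side and -3.01 without plate 056s. Ednrb had 0, 7.51 and 1422 CPM in the lowest, median and highest low-macrophage cell and 0, 355 and 6912 CPM in other microglia. No microglia identity gene was apart, with a median log2 ratio of 0.35 over 30 genes.

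The higher genes named by size were Cd9, Mpeg1, Clstn1, Slc2a1 and Scd2. Cd9, a tetraspanin, had 734 CPM (721 to 747) in low-macrophage microglia and 234 CPM (230 to 238) in other microglia (log2 ratio 1.65), and its median cells were at 365 and 149 CPM. One cell gave 20.9% of the low-macrophage Cd9 counts, and without the top cell of each side the log2 ratio was 1.49. Mpeg1, the pore-forming perforin-2, had 651 CPM against 270 CPM (1.27), from 0 to 2139 CPM over low-macrophage cells. Slc2a1, a glucose transporter that is also abundant in endothelium, had 124 CPM against 57.0 CPM (1.11). Of the 6 endothelial markers, Slc2a1 and Pecam1, an adhesion molecule of endothelium and myeloid cells, were measured, and both were higher than in macrophages. Pecam1 was at 59.9 CPM in low-macrophage microglia, 45.8 CPM in other microglia and 1.74 CPM in macrophages, and Cldn5, Flt1, Kdr and Ly6c1 were each below 1 CPM in low-macrophage microglia. The part of endothelial RNA was not tested. Clstn1, a calsyntenin, had 123 CPM against 53.1 CPM, and Scd2, a fatty acid desaturase, 135 CPM against 66.9 CPM. In the mean of the pools, Mpeg1, Slc2a1 and Scd2 were under 2-fold. Slc2a1 and Scd2 were also under it without plate 059s or plate 060s. The same held with the mean of the cells' own CPM and with a limit of 12000 CPM for the macrophage gene sum. Scd2, at a log2 ratio of 1.00, fell under it with Rn18s in the total or the 16 genes out of it. It also did so with a pseudocount of 5 CPM, after thinning, without the top cell and without plate 530s. Clstn1 was under 2-fold after thinning and without plate 524s.

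Single cells stood apart in Apoe and in genes known from disease-associated microglia. Apoe, a lipid carrier, had 367 CPM in the lowest, 12778 CPM in the median and 275315 CPM in the highest low-macrophage cell. It exceeded 100000 CPM in 4 of the 55 cells, 1 of 160 other microglia and 38 of 400 macrophages. These 4 low-macrophage cells held 275315 and 253480 CPM in a pair of WT cells of plate 530s, 250520 CPM in a WT cell of plate 059s and 107076 CPM in a Het cell of plate 056s. In these 4 cells together Apoe was at 186934 CPM, P2ry12 at 1877 CPM, Tmem119 at 1480 CPM and Sall1 at 1.64 CPM. In the other 51 cells these genes were at 19084, 8127, 7646 and 461 CPM. Since the 4 cells were picked by their Apoe level, this is a description; the Lyz2 level was 10423 CPM in them and 2062 CPM in the other 51. Over the 55 cells, Apoe had Spearman's rho of 0.74 with Lyz2, 0.67 with the macrophage gene sum and -0.44 with Tmem119.

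Spp1, osteopontin, and Gpnmb, a lysosomal glycoprotein, exceeded 1000 CPM in the same 3 cells, and the median cell had no count of either. The WT cell without Tmem119 had 28196 CPM of Spp1, 29201 CPM of Gpnmb, 6666 CPM of Cd9, 1102 CPM of Lgals3 and 111597 CPM of the protease Ctsb. A second WT cell of plate 530s, the one with the highest Apoe, had 24625 CPM of Spp1 and 3324 CPM of Gpnmb. A Het cell of plate 056s had 6885 CPM of Spp1 and 5169 CPM of Gpnmb, beside 5562 CPM of P2ry12 and 7510 CPM of Tmem119. No cell among other microglia exceeded 1000 CPM of Spp1 or Gpnmb, and in macrophages 10 of 400 did for Spp1 and 0 for Gpnmb. Of 12 measured genes of disease-associated microglia only Cd9 was apart from macrophages, against 2.71% higher and 2.69% lower over all measured genes. The median log2 ratio of the 12 genes was 1.11, and 9 of them were above 0.

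Transcripts of other brain cell types were present at low levels. The 6 oligodendrocyte genes summed to a median of 377 CPM per low-macrophage cell, 309 CPM per other microglia cell and 435 CPM per macrophage. The 6 astrocyte genes summed to a median of 145 CPM per low-macrophage cell, 68.9 CPM per other microglia cell and 8.68 CPM per macrophage, with a median log2 ratio of 1.12 over macrophages for the 4 that were measured. Of 7 lymphocyte genes only Cd3e had a count in the 55 cells. The neutrophil genes S100a8 and S100a9 exceeded 1000 CPM together in 2 Het cells, with 4079 and 2161 CPM of S100a8 and 6363 and 2940 CPM of S100a9. Cd74, the invariant chain of MHC class II, was at 8555 CPM in a WT cell of plate 530s and at 8378 CPM in a KO cell of plate 060s, with a median of 23.0 CPM over all 55. Mbp, a myelin gene, reached 11367 CPM in a Het cell of plate 524s, against a summed level of 327 CPM in low-macrophage microglia and 441 CPM in macrophages. Their part in the results above was not tested.

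The study compares mice that lack Notch3 with controls, and the genotypes were set side by side within the low-macrophage microglia. Notch3, a receptor known from the mural cells of vessels, had 0 counts in the 17 KO cells, 1 count in the 18 Het cells and 1 count in the 20 WT cells, so it could not check the genotype labels here. A level of up to 0.691 CPM in KO cells would be allowed by a count of 0. Low-macrophage cells made up 21.8% of KO cells labelled Microglia (95% exact binomial interval 13.2 to 32.6), 31.0% of Het (19.5 to 44.5) and 25.3% of WT (16.2 to 36.4). By plate the shares ran from 6.67% of 15 cells (WT, plate 529s) to 45.0% of 20 cells (WT, plate 530s). The median macrophage gene sum was 4980 CPM in KO, 4766 CPM in Het and 1779 CPM in WT cells, and the median number of genes counted was 4485 in KO, 6003.5 in Het and 3611.5 in WT cells; their part in the genotype values below was not tested. The genotypes were on different plates except for plate 524s, which held KO and Het cells, and plate 529s, where only 1 low-macrophage cell was WT. Plate and genotype can otherwise not be told apart.

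The microglial markers were present in every genotype. P2ry12 was at 7487 CPM in KO, 9097 CPM in Het and 5596 CPM in WT cells, with medians of 7697, 5900 and 3571 CPM. Tmem119 was at 7559, 7546 and 5893 CPM, and Sall1 at 407, 408 and 414 CPM, in the same order. The WT level of P2ry12 was 9017 CPM on plate 059s and 1661 CPM on plate 530s, so the 2 WT pools differed by more than the genotypes did. No microglia identity gene of 30 measured was apart between KO and both controls. Over all measured genes, only 3.26% were higher and 2.40% lower in KO, so a group of this size could hold none at that share.

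A gene was called apart by genotype at 2-fold or more between KO and each of Het and WT, with both KO pools beyond all 5 control pools. Of 6788 measured genes, 221 were higher (3.26%) and 163 lower (2.40%) in KO. With TMM factors the split was 150 higher and 227 lower, and with Rn18s in the total it was 215 and 89. The higher genes named by size were Smim10l2a, Heg1, Zadh2, Dck, Tk1, Hilpda, Umad1 and Rrn3, and the lower ones Slc9a7, Serpinb8, Zmym3, Dhx58, Zfp873, Atxn7l3, Ivd and Lgals3. They were low in level and rested on few cells: in 9 of the 16, over 60% of the counts on the higher side came from 1 cell. Rrn3, a factor of RNA polymerase I, was at 169 CPM in KO (8 of 17 cells), 8.96 CPM in Het (2 of 18) and 7.33 CPM in WT (3 of 20). Smim10l2a, a small membrane protein gene with a near-identical copy, was at 122 CPM in KO (9 of 17 cells), 9.90 CPM in Het (3 of 18) and 0 in WT cells. Against a floor of 3 counts over the group, it was at least 238-fold higher than in WT, a bound that covers counting error only. With a limit of 12000 CPM for the macrophage gene sum, its log2 ratio of KO over WT was 2.06, not 6.94. Dck, deoxycytidine kinase, was at 108 CPM in KO, 8.02 CPM in Het and 0.511 CPM in WT cells, with 78.6% of the KO counts in 1 cell. Heg1, an endothelial membrane protein, was at 35.2 CPM in KO and at 0 in Het and WT, which makes it at least 74.7-fold higher than in Het and 68.9-fold higher than in WT on the same floor. Of its KO counts 96.7% came from 1 cell, and without the top cell of each genotype its log2 ratio over WT was 1.21, not 5.18; without the 6 cells of high mitochondrial share it was 0.91.

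Among the lower genes, Ivd, an enzyme of leucine breakdown, was at 3.23 CPM in KO (5 of 17 cells), 129 CPM in Het (13 of 18) and 49.1 CPM in WT (9 of 20), and without plate 530s its log2 ratio of KO over WT was -1.07, not -3.57. Slc9a7, a sodium and proton exchanger, had no count in KO cells and 25.0 and 51.8 CPM in Het and WT cells, which makes it at least 36.2-fold lower in KO than in Het and 75.0-fold lower than in WT; 1 cell gave 94.3% of the Het counts. With a limit of 12000 CPM for the macrophage gene sum, the log2 ratio of Slc9a7 was -0.31 over Het, not -4.70, and -2.03 over WT, not -5.72. Zmym3, a zinc finger protein, was at 1.38, 33.9 and 75.7 CPM in KO, Het and WT cells. Dhx58, an RNA helicase of the interferon response, was at 1.38, 33.3 and 72.6 CPM. Lgals3, galectin-3, was at 0.230, 5.19 and 86.7 CPM; with a limit of 12000 CPM for the macrophage gene sum, KO was above Het, and without plate 530s the log2 ratio of KO over WT was -1.23, not -6.16. Of the Zfp873 counts in WT, 96.7% came from 1 cell, and without the top cells the log2 ratio of KO over WT was -1.91, not -6.18. None of 8 measured Notch pathway genes was apart by genotype, against 3.26% higher and 2.40% lower over all measured genes. So small a group could hold none at that share. Without plate 060s the counts were 865 higher and 1024 lower genes, and without plate 524s they were 783 and 449; each leaves 1 KO pool, and plate 524s also holds a Het pool.

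**Figure D5:**
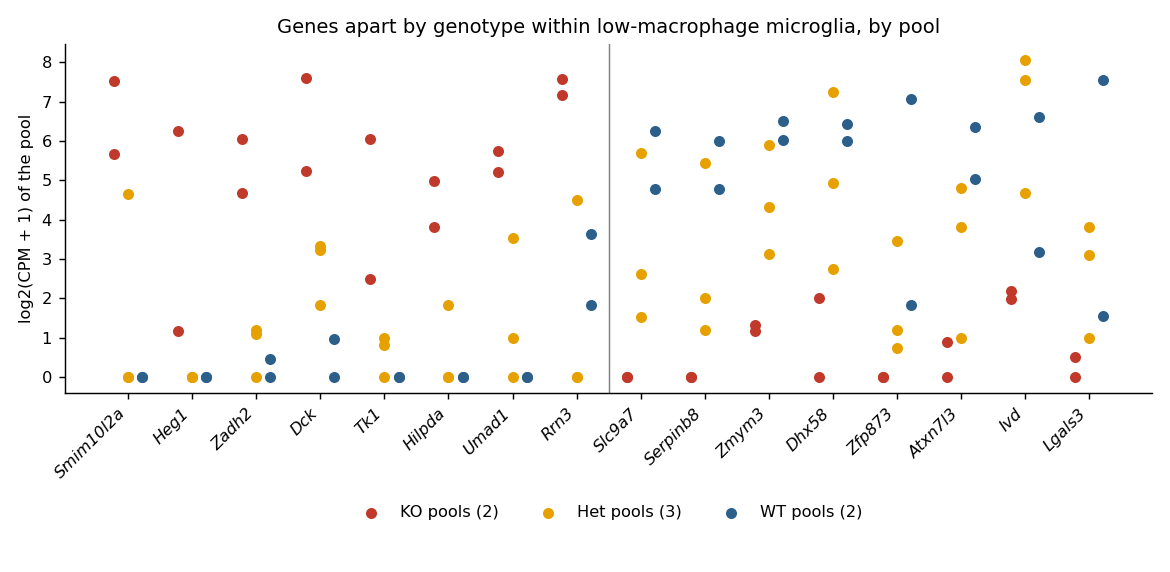
Each point is the summed level of 1 pool of low-macrophage microglia (cells of 1 genotype on 1 plate, at least 3 cells), as log2(CPM + 1), for the 8 genes named as higher (left of the line) and the 8 named as lower in KO. KO pools lie beyond all Het and WT pools for each gene because the rule asked for it; Heg1 was at 35.2 CPM in KO and Ivd at 3.23 CPM.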

How the data were processed

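Whole-number read counts of 53546 gene symbols and 92 spike-ins in 629 cells were deposited by the authors as 1 table, with nothing normalised. Reads were aligned with STAR, per the submitters' processing notes; its version, the genome build, the annotation and the counting program are not given in the sources used here. The members and gene lists were chosen with earlier results of these data known. Levels are CPM of summed counts, with the total of all genes but the spike-ins and Rn18s. Log2 ratios are of CPM + 1. Single cells are not replicates and no label names an animal, so no test was run; pools of 1 genotype on 1 plate served as the check of direction. Wells were sorted as single cells and no doublet caller was run. Named genes had the largest log2 ratios among genes apart: 15 each way against macrophages and 8 each way otherwise, with at least 100 CPM and counts in 50% of the cells of the higher side in comparisons of cell types; predicted genes, ribosomal and mitochondrial genes and sex-linked markers were not named. Intervals are exact Poisson (levels) or exact Clopper-Pearson (shares) at 95%; reads are not independent molecules, so they cover counting error only. SMART-seq2 does not mark strand: in GENCODE M21, Cd34, Cd3e, Cd9, Csf1r, Ctsb, Dab2, Dhx58, Dusp1, F13a1, Fcna, Folr2, Gas6, H2-DMa, Heg1, Il1a, Lpcat2, Ms4a6c, Notch3, Npr1, P2ry12, Rnf150, Slc2a1, Smim10l2a, Stab1 and Tk1 share exon bases with an antisense gene, Adora3, Cd74, P2rx7, Scd2 and Spp1 with a gene of the same strand, and Atp8a2 and Umad1 with genes of both, so such reads cannot be told apart. Counts of near-identical copies, as in the H2, Ms4a and Ccl families and Smim10l2a, are uncertain. Alternatives covered other totals, edgeR 4.0.16 TMM factors, DESeq2 1.42.0 size factors, pseudocount, filters, limits, thinning, top cells and plates. The comparison of low-macrophage microglia with macrophages and the thinning were tested on simulated data, and the genotype rule was not. Python 3.11.15, numpy 2.4.6 and R 4.3.3 were used. Values of some genes counted in the lists are not reported here.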

Additional observations from a re-analysis of the deposited data

Results flagged for a closer look

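The 14 cells of type 7, which no comparison above used, held the microglial markers above the level of macrophages. P2ry12 was at 778 CPM in type 7 cells (95% exact Poisson interval 717 to 843) and 340 CPM in macrophages. Tmem119 was at 1438 CPM (1355 to 1526) in type 7 cells and 73.1 CPM in macrophages, and Sall1 at 49.8 CPM (35.2 to 68.3) and 7.12 CPM. In the median type 7 cell Sall1 was at 0 CPM. The 16 macrophage genes summed to 29577 CPM in type 7 cells and 35542 CPM in macrophages. Oligodendrocyte genes summed to 4165 CPM in type 7 cells and 692 CPM in macrophages, astrocyte genes to 1619 and 129 CPM, and neuron genes to 645 and 36.7 CPM, in the same order. Low-macrophage microglia had 7436 CPM of P2ry12, 6964 CPM of Tmem119 and 410 CPM of Sall1.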

How the results depend on the processing

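Of 24 other settings, 3 were chosen after seeing the data: a total without Apoe, no cell without Tmem119, and no cells of high mitochondrial share. A log2 ratio or median was taken as moved past 1 SD over the pools, a wide limit where pools differ: 7 pools, or the 2 KO pools. Over the 21 settings that can act on a ratio, 235 of 1617 log2 ratios of named genes moved and 1 turned its sign: with a limit of 12000 CPM for the macrophage gene sum, Lgals3 had a log2 ratio of KO over Het of 0.84, not -2.33. Of 1596 medians of gene groups, 190 moved. All 30 genes named against macrophages kept 4-fold except Mgl2 at a limit of 12000 CPM; of the 13 named against other microglia, 10 to 13 kept 2-fold, and of the 16 named by genotype, 14 to 16. Counts that moved by over 1.5 times follow; the cause was not tested except where fewer pools or genes, or another fold limit, set it by construction. Against macrophages, the 165 higher genes became 268 at 2-fold. The 164 lower genes became 275 with no filter on low values, 105 with a floor of 100 CPM, 396 at 2-fold and 88 at a limit of 12000 CPM. Against other microglia, the 13 higher genes became 21 with DESeq2 size factors, 6 with a floor of 100 CPM, 0 at 4-fold, 6 after thinning and 26 at a limit of 12000 CPM. Leaving out plate 056s, 059s, 060s, 524s or 529s gave 24, 25, 24, 52 and 24. With the mean of the cells' own CPM, 10 genes were higher, of which 2 were among the 13. The 193 lower genes became 125 with DESeq2 size factors, 294 with no filter, 77 with a floor of 100 CPM, 53 at 4-fold, 312 and 92 at limits of 5000 and 12000 CPM, and 366 and 308 without plates 524s and 529s. By genotype, the 221 higher genes became 402 with no filter, 74 with a floor of 100 CPM, 60 at 4-fold, and 865 and 783 without plates 060s and 524s. The 163 lower genes became 89 with Rn18s in the total, 51 with a floor of 100 CPM, 62 at 4-fold, 335 and 105 at limits of 5000 and 12000 CPM, and 245, 1024, 449 and 260 without plates 056s, 060s, 524s and 530s. The genotype lists also changed members where their size held. Of the 221 higher genes, 99 stayed with the mean of the cells' own CPM, which called 199. After thinning, 97 stayed of 216 called, and at a limit of 5000 CPM 65 of 194. Of the 163 lower genes, 75, 49 and 66 stayed under the same settings, which called 140, 110 and 335. The limits of 5000 and 12000 CPM gave 38 and 85 cells. The median log2 ratio over macrophages of all measured genes was -0.06, and 0.04 with TMM factors; over other microglia it was -0.11 and 0.08. No test paired by animal was possible because no label names an animal; with pools of the same genotype and plate weighted equally, 176 and 166 genes were higher and lower than in macrophages, and 9 and 200 than in other microglia. Depth and the number of cells limit genes near 20 CPM, and no spread between mice could be had.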

Other observations

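The lysosomal genes together reached 269919 CPM in the WT cell without Tmem119, against a median of 72845 CPM over the 55 low-macrophage microglia and 66046 CPM over other microglia. Among immediate early genes, which respond to stimulation and to cell dissociation, Dusp1 was lower in low-macrophage microglia than in both other classes, at 9.84 CPM against 113 CPM in other microglia and 144 CPM in macrophages. Fos was at 29.2 CPM against 146 CPM in other microglia and 195 CPM in macrophages and was apart from other microglia only. The solute carrier Slc1a3, which astrocytes also express, was at 170 CPM in low-macrophage microglia and 14.3 CPM in macrophages. Axl, a TAM receptor, was at 211, 57.6 and 79.9 CPM in low-macrophage microglia, other microglia and macrophages, with counts in 50.9%, and it was not apart from either.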
